A study of Sus scrofa with 9 samples.

Results

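The genes described here are transcription factors and MAP kinase phosphatases that injured cells switch on: the transcription factors MYC, KLF5, KLF6, ATF3, FOS, JUN and EGR1, and the phosphatases DUSP5 and DUSP6. Of the 9 listed genes, 7 were measured by a probe set that carried that symbol alone, among 19124 probe sets and 12362 named genes in all. KLF6 and DUSP6 had no such probe set and were not analysed here, so DUSP5 alone stands for the phosphatases. Each of the 7 had 1 probe set, and none was dim, which means a mean log2 value under 3.92, the limit of the lowest 25% of probe sets. The genes were chosen from differences already seen between SCS and No Storage in these arrays, where MYC, KLF5 and DUSP5 had passed the threshold. That comparison is therefore given for them as a description.

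Kidney biopsies came from 9 male Yorkshire pigs of 30 kg, with 1 array per animal. In every group the right kidney lost its blood flow for 30 min while warm, was removed and flushed, and later went back into the same pig, whose left kidney was then taken out. The No Storage kidneys (n = 3) went back at once, the SCS kidneys (n = 3) after 8 h of static cold storage, and the NEVKP kidneys (n = 3) after 8 h of normothermic ex vivo kidney perfusion, in which warm perfusate flows through the organ outside the body. All groups thus share the warm ischemia, the surgery and the loss of the other kidney, and no group of uninjured kidneys was analysed here. Biopsies were taken on day 3 after the operation. All 16 measured markers of nephron segments and podocytes were above the dim limit. The values are log2 intensities, with array medians from 5.70 to 5.80, and the number of arrays limits the precision.

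FOS, JUN, EGR1 and ATF3 are immediate-early or early stress genes: their transcription starts within minutes of a growth factor, stress or injury signal, without the need for new protein. FOS and JUN pair to form the factor AP-1, and ATF3 belongs to the same leucine zipper family. MYC and KLF5 drive growth and division and appear in tubule cells that regenerate after injury. DUSP5 is itself induced by the MAP kinase ERK and removes phosphate from ERK in the nucleus, which makes it a feedback brake and a readout of the pathway.

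MYC was lowest in every No Storage kidney and highest in every SCS kidney. Its log2 values were 7.51, 7.47 and 7.21 in No Storage replicates 1, 2 and 3. They were 8.09, 8.25 and 8.13 in NEVKP and 8.76, 8.47 and 8.27 in SCS. The 3 groups did not overlap, although the gap between the highest NEVKP and the lowest SCS array was small. Means were 7.40 ± 0.16 in No Storage, 8.15 ± 0.08 in NEVKP and 8.50 ± 0.25 in SCS (log2 value, SD, n = 3). The SCS mean was 2.15-fold and the NEVKP mean 1.69-fold that of No Storage, which are log2 differences of 1.10 and 0.76 (SE 0.15 for each).

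KLF5, a zinc finger factor of proliferating epithelium, was set apart mainly by the SCS kidneys. Its log2 values were 7.22, 7.26 and 6.85 in No Storage replicates 1, 2 and 3. They were 7.36, 7.50 and 7.30 in NEVKP and 8.05, 7.93 and 7.99 in SCS. The 3 SCS arrays lay close together and above all others, while the lowest NEVKP array was only just above the highest No Storage array. Means were 7.11 ± 0.22, 7.39 ± 0.11 and 7.99 ± 0.06 in No Storage, NEVKP and SCS (SD, n = 3). The SCS mean was 1.84-fold and the NEVKP mean 1.21-fold that of No Storage.

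Only MYC and KLF5 among the 7 genes had all 3 groups apart in the order No Storage, NEVKP, SCS. The same order without overlap was found for 0.497% of all probe sets. Part of this order belongs to the comparison that chose the genes, so nothing is read from the count.

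**Figure D1:**
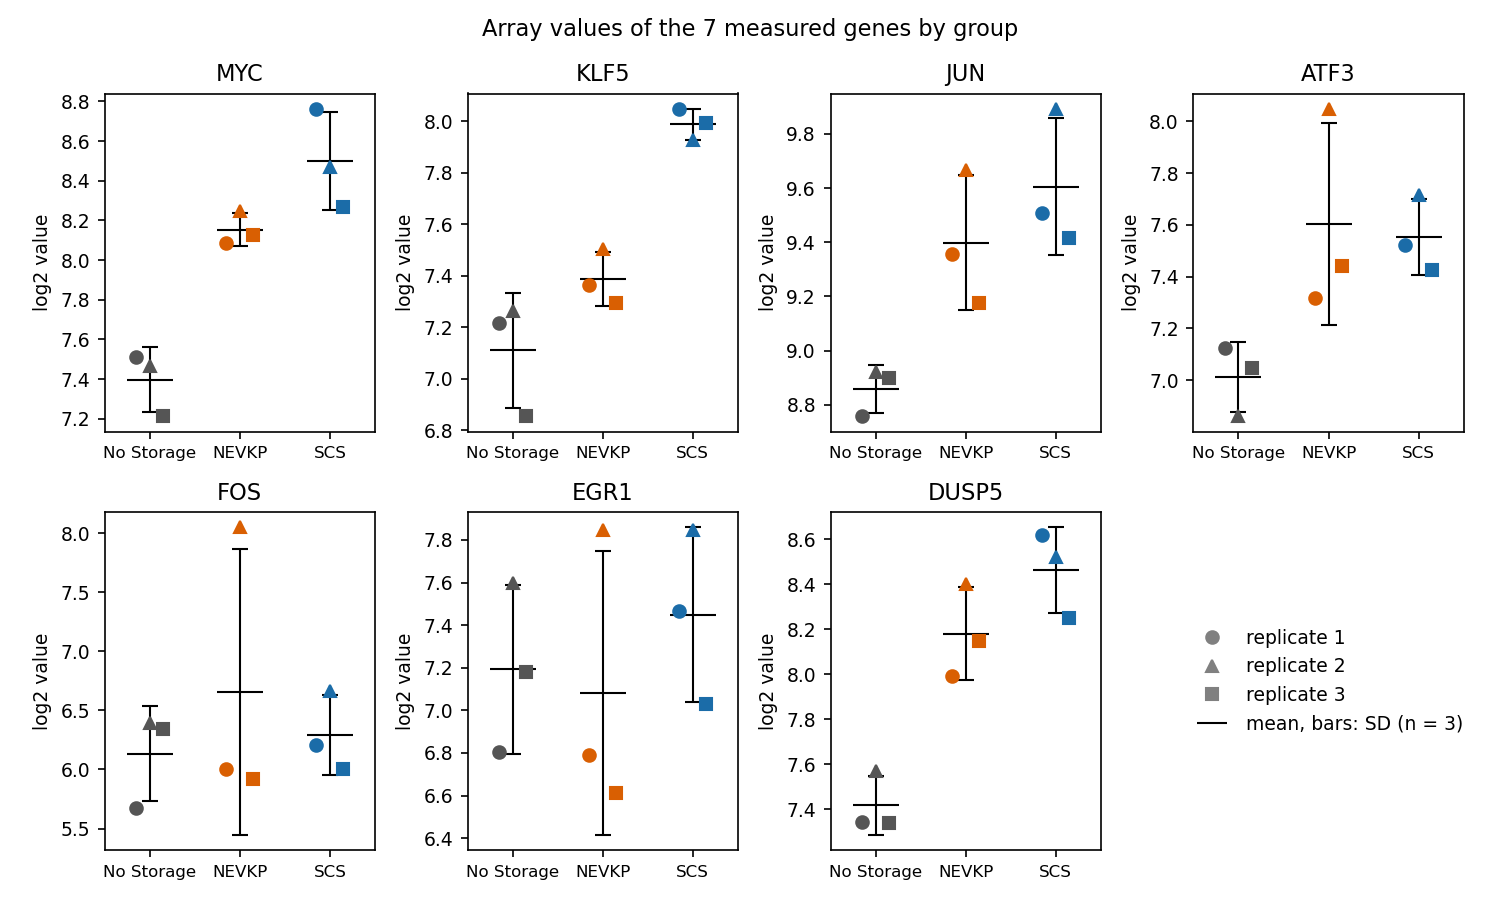
Log2 value (vertical axis) of the 7 measured genes in No Storage, NEVKP and SCS kidneys. Points are single arrays with a shape per replicate number, and black lines are the mean and SD (n = 3). MYC and KLF5 show 3 separate groups, DUSP5, JUN and ATF3 lie above No Storage in both stored groups, and FOS and EGR1 overlap.

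JUN, the partner of FOS in AP-1, was above No Storage in both stored groups. Its log2 values were 8.76, 8.92 and 8.90 in No Storage replicates 1, 2 and 3, 9.36, 9.67 and 9.17 in NEVKP, and 9.51, 9.89 and 9.41 in SCS. The SCS and NEVKP arrays overlapped each other and neither overlapped No Storage. Means were 8.86 ± 0.09, 9.40 ± 0.25 and 9.61 ± 0.25 in No Storage, NEVKP and SCS (SD, n = 3), so that the SCS mean was 1.68-fold and the NEVKP mean 1.45-fold that of No Storage.

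ATF3, a stress-induced repressor and activator of the ATF/CREB family, was the gene for which SCS and NEVKP lay closest. Its log2 values were 7.12, 6.86 and 7.05 in No Storage replicates 1, 2 and 3, 7.32, 8.05 and 7.44 in NEVKP, and 7.52, 7.71 and 7.43 in SCS. Every stored kidney was above every No Storage kidney, and NEVKP replicate 2 was the highest of all. The difference from No Storage was 0.54 for SCS and 0.59 for NEVKP (SE 0.19 for each). Without NEVKP replicate 2 the NEVKP difference was 0.37.

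FOS and EGR1 did not separate the groups. FOS had log2 values of 5.67, 6.39 and 6.34 in No Storage replicates 1, 2 and 3, 6.001, 8.05 and 5.92 in NEVKP, and 6.21, 6.66 and 6.001 in SCS. NEVKP replicate 2 stood far above the other 8 arrays, and without it the remaining values of the 3 groups overlapped. The FOS difference from No Storage was 0.52 for NEVKP (SE 0.49) and -0.18 without NEVKP replicate 2. For SCS it was 0.16, and -0.08 without No Storage replicate 1 or -0.03 without SCS replicate 2.

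EGR1, a zinc finger factor induced through serum response factor, had log2 values of 6.80, 7.60 and 7.18 in No Storage replicates 1, 2 and 3. They were 6.79, 7.85 and 6.61 in NEVKP and 7.47, 7.85 and 7.03 in SCS. The groups overlapped throughout. The difference from No Storage was 0.25 for SCS and -0.11 for NEVKP (SE 0.33 for each), and the latter ran from -0.49 to 0.12 when single arrays were left out.

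DUSP5 followed MYC closely. Its log2 values were 7.34, 7.57 and 7.34 in No Storage replicates 1, 2 and 3, 7.99, 8.40 and 8.15 in NEVKP, and 8.62, 8.52 and 8.25 in SCS. Both stored groups lay above No Storage, and they overlapped each other. Means were 7.42 ± 0.13, 8.18 ± 0.21 and 8.46 ± 0.19 in No Storage, NEVKP and SCS (SD, n = 3). The SCS mean was 2.06-fold and the NEVKP mean 1.70-fold that of No Storage. Centred on their own means, the MYC and DUSP5 profiles differed by a root mean square of 0.11 over the 9 arrays, the smallest value for any pair of the 7 genes. Next were ATF3 and JUN at 0.19. All pairs share the same 9 arrays, and these values are a description.

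For SCS against No Storage, all 7 differences were positive, with a median of 0.75 against 0.010 over all probe sets. MYC, KLF5 and DUSP5 were past the limma threshold of an adjusted p of 0.05 over all 19124 probe sets, a call made for 0.068% of probe sets on the higher side. These calls chose the genes and are no evidence about them. The arrays did not overlap, with SCS higher, for 5 of 7 genes and for 11.3% of probe sets. Omission of any of 7 single arrays (No Storage replicates 1, 2 and 3, SCS replicates 1 and 2, NEVKP replicates 1 and 3) left 0 of the 7 genes past the threshold. Without SCS replicate 3 there were 2, MYC and DUSP5, and without NEVKP replicate 2 there were 3. The log2 differences moved less, from 0.97 to 1.22 for MYC, 0.75 to 0.98 for KLF5 and 0.97 to 1.15 for DUSP5 over all alternatives. With the replicate number as a block 1 gene passed, MYC, and with a fit on the compared groups alone 0 did.

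For NEVKP against No Storage, which asks what warm perfusion leaves behind on day 3, none of the 7 genes passed in limma. The adjusted p was 0.299 for MYC and DUSP5, 0.439 for JUN and ATF3, 0.582 for KLF5, 0.797 for FOS and 0.957 for EGR1. Over the whole array 0 of 19124 probe sets (0%) passed, with 1735 (9.07%) at an unadjusted p under 0.05, against 4 of the 7 genes. The 95% interval of the log2 difference was 0.42 to 1.09 for MYC, 0.42 to 1.10 for DUSP5, 0.17 to 0.91 for JUN and 0.17 to 1.01 for ATF3. For KLF5 it ran from -0.030 to 0.58. These intervals are not adjusted for the number of probe sets, and with no gene past the threshold the signs are not settled. NEVKP lay above No Storage without overlap for 5 of 7 genes and for 7.94% of probe sets. These were the same 5 as for SCS (MYC, KLF5, ATF3, JUN and DUSP5), a pattern in both stored groups of 3.91% of probe sets. The SCS and NEVKP differences share the No Storage arrays and are not independent of each other, nor of the choice of the genes.

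**Figure D2:**
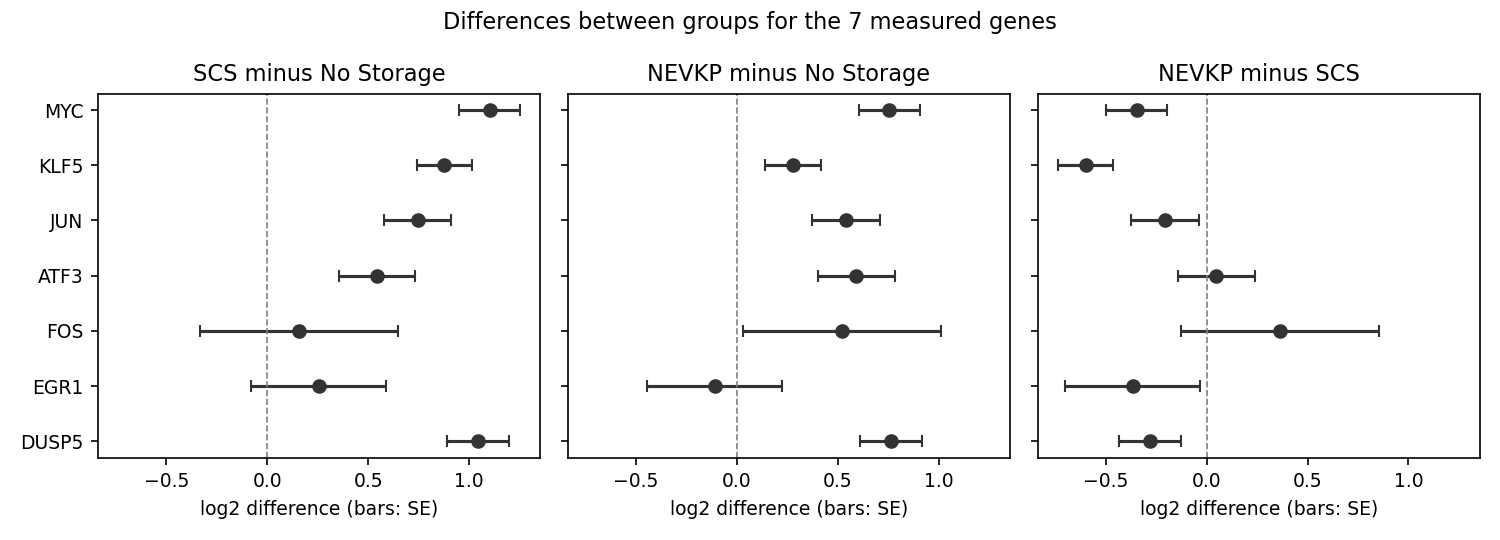
Log2 differences (horizontal axis) of the 7 genes in the 3 comparisons, with bars of 1 SE from limma. The SCS panel is the comparison that chose the genes. All genes but EGR1 are positive in both comparisons with No Storage, and KLF5 is the lowest of the 7 in NEVKP against SCS at -0.60.

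The comparison of NEVKP with SCS asks whether perfused kidneys differ from cold-stored ones at equal storage time. KLF5 showed the largest of the 7 differences at -0.60 (SE 0.14, 95% interval -0.91 to -0.29, limma adjusted p = 0.52), so that SCS was 1.52-fold NEVKP. MYC differed by -0.35 (interval -0.68 to -0.0092, limma adjusted p = 0.656). The arrays did not overlap for these 2 genes, with NEVKP lower, as for 6.78% of probe sets. DUSP5 differed by -0.28 (interval -0.62 to 0.058), JUN by -0.21 (-0.58 to 0.17) and EGR1 by -0.37 (-1.11 to 0.38). ATF3 differed by 0.05 (-0.37 to 0.47) and FOS by 0.36 (-0.72 to 1.45). In limma 0 of the 7 genes and 0 of all probe sets (0%) passed, with 2 of the 7 and 7.5% of all at an unadjusted p under 0.05. The intervals, not adjusted for the number of probe sets, leave room for differences of either sign in DUSP5, JUN, ATF3, EGR1 and FOS. With no gene past the threshold, the sign for KLF5 and MYC is not settled either. The median over the 7 genes was -0.28, against -0.02 over all probe sets. These differences share the SCS arrays with the comparison that chose the genes. That choice favours lower values in NEVKP, so nothing is read from the signs, the overlap or the median.

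The 7 genes differed widely in their spread among kidneys of 1 group. The standard deviation within groups was 0.76 for FOS and 0.51 for EGR1, above that of 99.0% and 95.9% of probe sets. It was 0.15 for KLF5 and 0.18 for MYC and DUSP5, above that of 24.7%, 39.3% and 39.9%. JUN (0.21) and ATF3 (0.25) lay between. MYC, KLF5 and DUSP5 thus had the smallest spread of the 7 genes and FOS and EGR1 the largest. A small spread favours a limma call, so this order is tied to the calls that chose the genes.

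A single perfused kidney stood apart for several of the genes, a pattern noticed after the values were seen. NEVKP replicate 2 was the highest NEVKP array for all 7 genes, as for 35.1% of all probe sets. Its FOS value was 4.26-fold the mean of the other NEVKP arrays, and EGR1 was 2.21-fold, ATF3 1.59-fold and JUN 1.32-fold. In the fixed list of other immediate-early and stress transcription factors it was the highest NEVKP array for 21 of 26 genes (80.8%), in the list of MAP kinase cascade genes for 15 of 26 (57.7%), and in the list of MYC network genes for 12 of 27 (44.4%). Picked after their values were seen, ZFP36, whose protein destroys cytokine mRNAs, had log2 values of 8.39, 10.48 and 8.61 in NEVKP replicates 1, 2 and 3. DUSP1, the immediate-early MAP kinase phosphatase, had 8.01, 9.83 and 8.05, and SOX9, a factor of regenerating tubule, had 7.02, 8.46 and 7.08. These genes were high together with FOS in that array and near each other in the other perfused kidneys.

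Arrays numbered 2 were also the highest of their group for FOS, EGR1 and JUN in all 3 groups, a pattern found in 3.28% of probe sets. The excess of replicate 2 over the mean of the others was 0.60 for EGR1 in both No Storage and SCS and 1.14 in NEVKP. For FOS it was 0.39, 0.56 and 2.09 in No Storage, SCS and NEVKP. Of the fixed list of immediate-early and stress factors, 8 of 26 genes (30.8%) had the same pattern: EGR2, IER3, SRF, ELK1, ATF4, ZFP36, SOX9 and RUNX1. In the MAP kinase list 2 of 26 (7.69%) had it, DUSP2 and KSR1, and in the MYC list 0 of 27 (0%). The replicate numbers belong to different pigs, and over all probe sets the deviations of same-numbered arrays correlated from -0.14 to 0.13. The labels do not say whether same-numbered pigs shared a day or batch, and this was not tested. SCS replicate 2 and NEVKP replicate 2 also had the lowest estimated array weights, 0.46 and 0.57, against up to 1.62. The part of the array weights in this pattern was not tested.

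**Figure D3:**
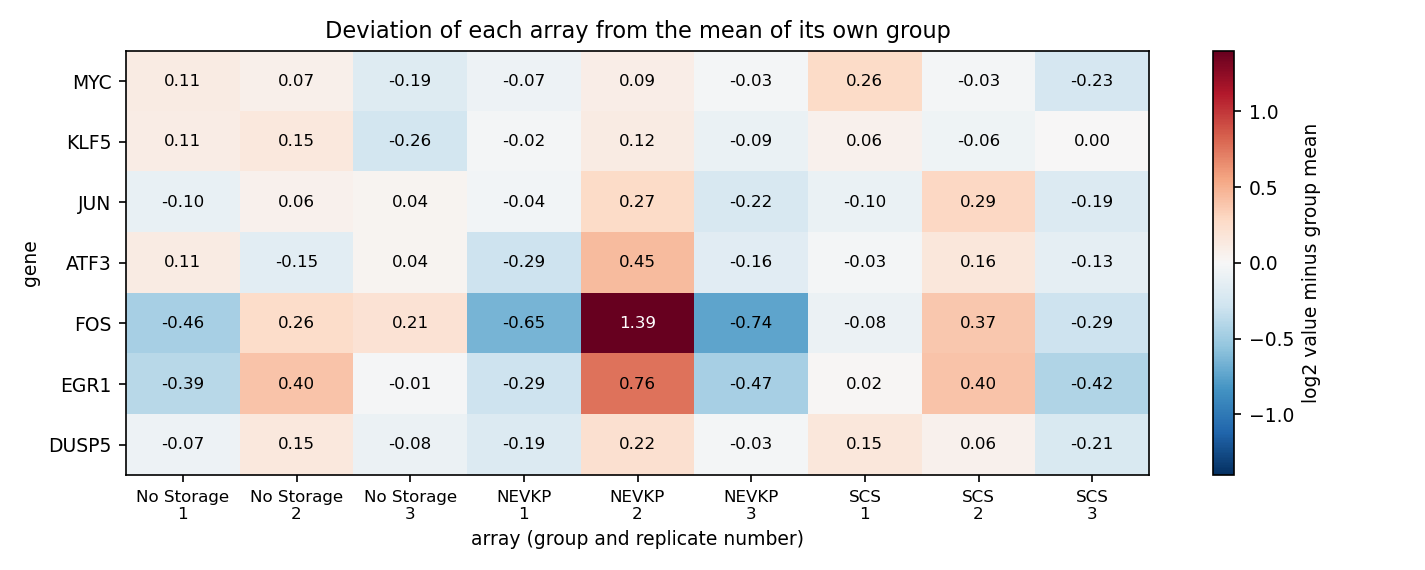
Deviation of each array from the mean of its own group (colour and printed value, log2 units) for the 7 genes (rows) and 9 arrays (columns). FOS (1.39) and EGR1 (0.76) in NEVKP replicate 2 are the largest deviations, and the replicate 2 columns are positive for FOS, EGR1, JUN and DUSP5.

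Some cell marker lists had different levels in the 3 groups. The fixed list of fibroblast and pericyte markers (5 of 6 measured, none dim) had a mean log2 value of 9.71 to 9.89 in No Storage, 10.34 to 10.73 in SCS and 10.18 to 10.81 in NEVKP arrays, highest in NEVKP replicate 2. Leukocyte markers (9 of 12 measured, none dim) ran from 6.31 to 6.49, 6.53 to 6.73 and 6.76 to 6.94 in No Storage, SCS and NEVKP. Neutrophil markers (3 of 5 measured, S100A8 dim) ran from 4.05 to 4.60, 4.66 to 5.30 and 4.42 to 4.63. Proximal tubule markers (6 of 7 measured) ran from 10.64 to 10.70 in No Storage, 9.75 to 10.49 in SCS and 9.81 to 10.62 in NEVKP, lowest in replicate 2 of both stored groups. Loop of Henle and distal tubule markers (3 of 4 measured) ran from 11.17 to 11.72, 9.53 to 10.65 and 11.33 to 11.82. Collecting duct markers (4 of 4 measured) ran from 9.06 to 9.33, 8.31 to 8.73 and 8.68 to 9.20. SCS lay below No Storage without overlap for the proximal tubule, loop and distal tubule, and collecting duct lists. For the loop and distal tubule list SCS also lay below NEVKP without overlap. Podocyte markers (3 of 4 measured) ran from 6.63 to 6.91, 6.19 to 6.66 and 6.27 to 6.81, and endothelial markers (4 of 5) from 7.99 to 8.16, 7.68 to 8.13 and 7.45 to 8.30, with overlap between all groups. Fat and skeletal muscle markers (2 of 5) ran from 4.82 to 4.89, 4.50 to 5.05 and 4.66 to 4.78. The part of these shifts in the differences of MYC, KLF5, DUSP5, JUN and ATF3 was not tested, and in a biopsy a change in the share of a cell type and a change in RNA per cell cannot be told apart.

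The wider set of immediate-early and stress genes, mostly transcription factors, was followed in a fixed list of 39 further genes, 26 of them measured. Like the MAP kinase and MYC lists below, it was chosen with earlier results of these data known, so its shares are a description. In SCS against No Storage 0 of the 26 passed in limma (0.162% of all probe sets did), while 10 were higher and 0 lower at an unadjusted p under 0.05 (38.5%, against 15.5% of all probe sets in either direction). The median difference was 0.29, against 0.010 over all probe sets, with 22 of 26 positive. SCS was above No Storage without overlap for 13 of 26 (50%), against 11.3% of all probe sets. RUNX1, a factor switched on in injured tubule, differed by 0.99 (limma adjusted p = 0.06) and ran from 6.14 to 6.28 in No Storage, 6.73 to 6.79 in NEVKP and 6.80 to 7.62 in SCS. SOX4 (0.69, limma adjusted p = 0.107), SOX9 (1.13, 0.163) and CEBPB (0.59, 0.196), an inducer of acute-phase genes, followed. Named after their values were seen, the measured EGR, IER and NR4A genes of the list were mixed. EGR2 differed by 1.04, IER3 by 0.40 and NR4A3 by 0.34. IER2 differed by 0.08, NR4A2 by -0.19 and the dim EGR4 by -0.08. RUNX1 passed with array weights (limma adjusted p = 0.046) and without SCS replicate 3 (0.03), in a range from 0.03 to 0.248, and SOX9 passed without NEVKP replicate 2.

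In NEVKP against No Storage 0 of the 26 passed in limma, with 3 higher and 0 lower at an unadjusted p under 0.05 (11.5%, against 9.07% of all probe sets). The median was 0.21, against -0.01 over all probe sets. RUNX1 differed by 0.57 (limma adjusted p = 0.444), SOX4 by 0.44, KLF10, a factor induced by TGF-beta, by 0.54 and NFKBIZ, a nuclear partner of NF-kappa B, by 0.80. In NEVKP replicates 1, 2 and 3, KLF10 was 8.80, 9.53 and 8.83. NFKBIZ was 7.21, 8.75 and 7.67 there and overlapped No Storage. RUNX1 (6.73 to 6.79) and SOX4 (7.36 to 7.70) varied less in NEVKP. NEVKP lay above No Storage without overlap for 6 of 26 (23.1%), against 7.94% of all probe sets. In NEVKP against SCS the median was -0.09 and 0 passed in limma, with 0 higher and 2 lower at an unadjusted p under 0.05 (7.69%, about the 7.5% of all probe sets). NFIL3, a bZIP factor, differed by -0.60 (95% interval -1.05 to -0.14, limma adjusted p = 0.599), RUNX1 by -0.42 (-0.83 to -0.014), NAB1, a corepressor that binds EGR1, by 0.27 and CEBPB by -0.33.

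Among 41 listed genes of the MAP kinase cascade and its feedback, 26 were measured, and 0 passed in limma in any comparison. For SCS against No Storage the median was 0.07, with 5 higher and 0 lower at an unadjusted p under 0.05 (19.2%, near the 15.5% of all probe sets). SCS was above No Storage without overlap for 6 of 26 (23.1%), against 11.3% of all. The 4 with the smallest p were the phosphatases DUSP4 (0.67, limma adjusted p = 0.108) and DUSP10 (0.84, 0.145), the kinase MAPKAPK2 that acts below p38 (0.43, 0.124), and SPRY1, an inhibitor of receptor tyrosine kinase signals (0.47, 0.163). DUSP4, induced by ERK like DUSP5, ran from 5.61 to 6.21 in No Storage, 5.89 to 6.20 in NEVKP and 6.49 to 6.72 in SCS, so that SCS alone stood apart. Named after their values were seen, DUSP1 differed by 0.18 and DUSP7, a cytosolic ERK phosphatase, by -0.16, and both overlapped No Storage. Differences between the phosphatases were not tested.

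In NEVKP against No Storage the cascade list had a median of 0.02, with 2 higher and 0 lower at an unadjusted p under 0.05 (7.69%, below the 9.07% of all probe sets). NEVKP lay above No Storage without overlap for 4 of 26 (15.4%), against 7.94% of all. DUSP10 differed by 0.68, the scaffold KSR1 by 0.38, IL17RD, a feedback inhibitor of ERK signals, by 0.33 and MAPKAPK2 by 0.20. In NEVKP against SCS the median was -0.10, with 0 higher and 2 lower (7.69%, against 7.5% of all). NEVKP lay below SCS without overlap for 3 of 26 (11.5%), against 6.78% of all. DUSP4 differed by -0.51 (limma adjusted p = 0.599), ETV4, an ERK-induced transcription factor, by -0.49, MAPKAPK2 by -0.23 and SPRY1 by -0.28.

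MYC works as a dimer with MAX and raises genes of ribosome assembly and metabolism. Of 39 listed partners, antagonists and textbook targets, 27 were measured, and 0 passed in limma in any comparison. In SCS against No Storage the median was 0.22, with 5 higher and 0 lower at an unadjusted p under 0.05 (18.5%, near the 15.5% of all probe sets). SCS was above No Storage without overlap for 8 of 27 (29.6%), against 11.3% of all. LDHA, lactate dehydrogenase, differed by 0.59 (limma adjusted p = 0.209), the glucose-sensing factor MLXIP by 0.49, the nucleolar protein gene NPM1 by 0.39 and the ribosome assembly gene RRP12 by 0.27. Named after their values were seen, MAX differed by 0.07, and the MYC antagonists MXD1 and MXI1 by 0.18 and 0.03. All 3 overlapped No Storage.

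In NEVKP against No Storage the MYC list had a median of 0.09, with 1 higher and 0 lower at an unadjusted p under 0.05 (3.7%, below the 9.07% of all probe sets). NEVKP lay above No Storage without overlap for 5 of 27 (18.5%), against 7.94% of all. LDHA differed by 0.48, the nucleolar protein gene NOP56 by 0.31, the transferrin receptor gene TFRC by -0.43 and the translation factor gene EIF4E by 0.23. LDHA was 9.15, 9.85 and 9.14 in NEVKP replicates 1, 2 and 3. In NEVKP against SCS the median was -0.08, with 0 higher and 1 lower (3.7%, below the 7.5% of all). RRP12 differed by -0.26 and did not overlap, with 6.56 to 6.72 in NEVKP and 6.86 to 6.98 in SCS. BOP1, also of ribosome assembly, differed by -0.26, NPM1 by -0.24 and the nucleolin gene NCL by -0.21.

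**Figure D4:**
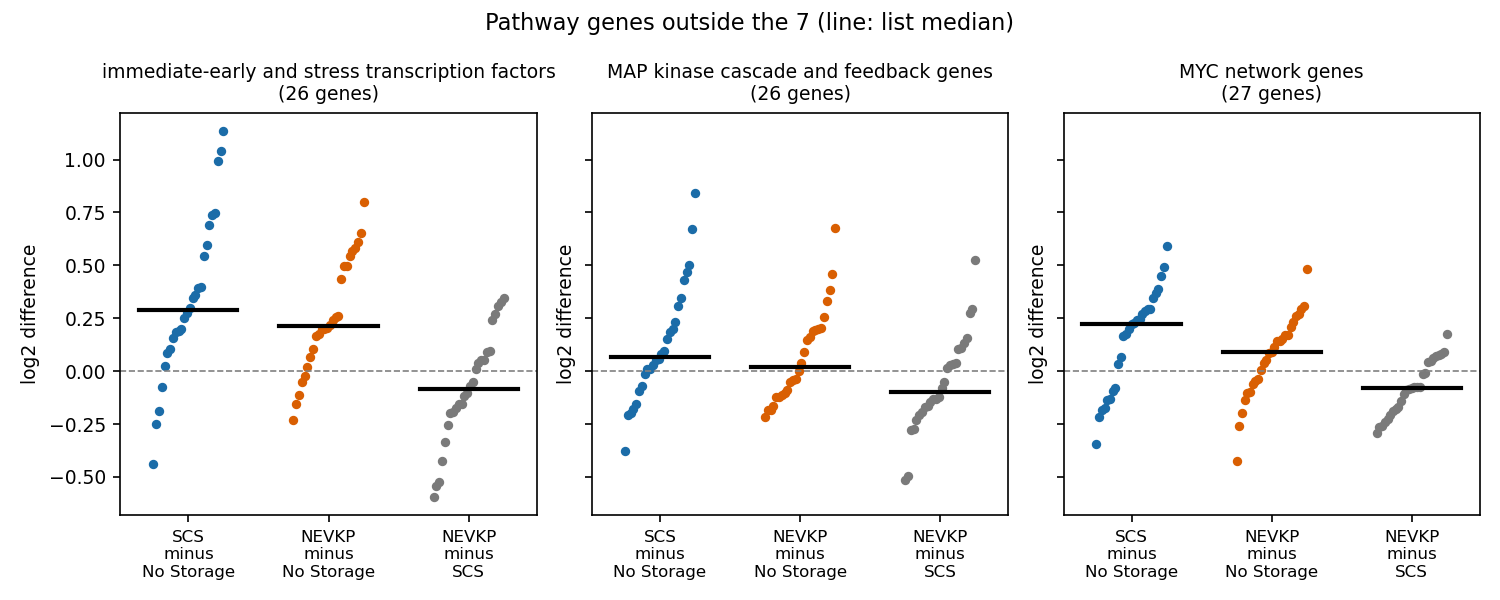
Log2 differences (vertical axis) of the measured genes of the 3 fixed lists in each comparison. Points are genes sorted by size and black lines are list medians. The medians in SCS against No Storage are 0.29, 0.07 and 0.22.

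Some genes followed MYC, KLF5 or DUSP5 closely over the 9 arrays. Likeness was the root mean square difference between profiles centred on their own mean, over 11010 named genes, where smaller is more alike. SULF1, a heparan sulfate sulfatase (0.11), ANXA1, the annexin that limits inflammation (0.13), and the adaptor PIK3AP1 (0.16) were nearest to MYC, where the median gene had 0.52. RACGAP1, needed to complete cell division (0.13), S100A2 (0.13) and IFNK (0.14) were nearest to KLF5, with a median of 0.43. IFNK was dim, with a group mean over the dim limit in SCS alone. CSF1, the growth factor of macrophages (0.13), RCAN1, an inhibitor of calcineurin (0.15), and the kinase PRKCB (0.16) were nearest to DUSP5, with a median of 0.50. These genes were found by their likeness, so their own group differences are no test. They were 1.03 for SULF1, 0.75 for RACGAP1 and 0.96 for CSF1 in SCS against No Storage, and 0.78, 0.28 and 0.74 in NEVKP.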

How the data were processed

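The authors deposited log2 intensities per probe set, made with RMA (background correction, scaling between arrays and a summary per probe set), per the submitters' processing notes, which also name limma 3.34.14. For the array type and any filter, nothing is stated in the labels used here. Symbols came from the array annotation: 13323 probe sets had 1 symbol, 357 several and 5444 none, and the brightest probe set stood for a gene. RefSeq symbols matched for all 7 genes. In R 4.3.3, limma 3.58.1 was run on all 19124 probe sets, with 3 groups over 9 arrays (6 residual and 4.12 prior degrees of freedom). P values were adjusted by Benjamini-Hochberg over all probe sets, and every adjusted p is from limma. This fit was also run on simulated data with 200 changed probe sets. Each was shifted by more than the difference of any of the 7 genes, so the run does not cover differences of their size. At 3 arrays against 3, an exact permutation test of a single gene cannot go below a two-sided p of 0.1, so none was used.

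The 9 genes and the pathway and marker lists were chosen with earlier results of these data known. Named genes were all measured members, up to 4 genes of a list per comparison by unadjusted p, and the 3 genes most like MYC, KLF5 and DUSP5. Outside this rule, some genes were named after their values were seen. They were ZFP36, DUSP1, DUSP7, MAX, MXD1, MXI1, the listed EGR, IER and NR4A genes and those that shared the replicate 2 pattern. Replicate numbers were checked as pairs: 1 of 9 same-numbered pairs correlated over 0.1, so they were not treated as pairs. That correlation is over all probe sets and does not speak for a small group of genes. Alternatives were median centring, omission of the dimmest 25%, a trended and robust prior, array weights, a fit on the compared groups alone, averaging all probe sets of a gene, a replicate block and omission of each array. Omission of SCS and NEVKP replicates 2, and of all replicates 2, was chosen after seeing the data.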

Additional observations from a re-analysis of the deposited data

How the results depend on the processing

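Of the 378 member differences recomputed under the alternatives, 328 kept both direction and side of the threshold. The call was lost by 33 (MYC, KLF5 and DUSP5 in SCS against No Storage), and 17 changed sign. Averaging probe sets could not change a member difference, since each member had 1, nor could the replicate block. In SCS against No Storage, the only comparison with called members, the call was kept in 8 of 18 alternatives for MYC, 6 for KLF5 and 7 for DUSP5. Of the 7 genes, the number past the threshold there was 3, but 0 with a fit on the compared groups alone, 1 with the replicate block, 0 to 3 with single arrays left out, and 0 without SCS replicate 2 and NEVKP replicate 2 or without replicate 2 of every group. The fits with arrays left out have fewer samples, as has the fit on the compared groups alone, and the replicate block adds terms to the model. The cause of the changed counts was not tested. The count over all probe sets in that comparison, 31, ran from 0 to 158. The list of immediate-early and stress factors had 1 call with array weights and 0 to 1 with single arrays left out. The counts of the 7 genes in both NEVKP comparisons, and of the other lists in SCS against No Storage, stayed at 0 under every alternative run, as did the counts of all 3 lists in the NEVKP comparisons. Over all probe sets, NEVKP against SCS had 1 call with array weights and 1 without SCS replicate 2, and 0 otherwise.

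The sign changes were in FOS, EGR1 and ATF3. FOS ran from -0.076 to 0.30 in SCS against No Storage, from -0.18 to 0.89 in NEVKP against No Storage and from -0.33 to 0.73 in NEVKP against SCS with single arrays left out. Without SCS replicate 2 and NEVKP replicate 2 it was -0.030, -0.18 and -0.15, and without replicate 2 of every group -0.048 in NEVKP against No Storage and -0.15 in NEVKP against SCS. EGR1 ran from -0.49 to 0.12 in NEVKP against No Storage. ATF3 ran from -0.17 to 0.19 in NEVKP against SCS, and was -0.0094 with array weights and -0.094 without replicates 2 of SCS and NEVKP or of every group. Over all probe sets, same-numbered arrays deviated together by a correlation of -0.14 to 0.13. Every group holds each replicate number, so the replicate block could not change a log2 difference and is no check of it. None of the 7 probe sets was dim, and the part of signal level in the sign changes was not tested.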
